A study of Mus musculus with 27 samples.

Results

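The Polycomb complex genes followed here are 10 genes that encode subunits of the Polycomb repressive complexes 1 and 2, namely Ezh1, Ezh2, Eed, Suz12, Jarid2, Ring1, Rnf2, Bmi1, Cbx2 and Cbx8. They were taken by gene symbol from a table of 37310 genes. All 10 were found there, and all 10 passed the filter on low counts. Gene expression was measured by RNA-seq in mouse embryonic fibroblasts (MEFs), with 3 libraries each from Female WT, Female KO, Male WT and Male KO cells. WT cells were untreated wild type. KO cells carried a deletion of the whole Firre locus, a long non-coding RNA gene on the X chromosome, made by recombination between loxP sites, with no other allele or agent named for these libraries. MEFs were grown from the trunks of individual midgestation embryos and used at low passage. Which embryo line lies behind each library was not given, so the p-values measure the spread between these libraries, which may be technical.

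Polycomb repressive complex 2 (PRC2) methylates lysine 27 of histone H3 through Ezh1 or Ezh2, which take the same place in the complex and need Eed and Suz12 for activity. Polycomb repressive complex 1 (PRC1) ubiquitinates histone H2A through Ring1 or its paralog Rnf2, each paired with a Pcgf protein such as Bmi1, and in its canonical form it is brought to methylated H3 by a Cbx chromodomain protein. In fibroblasts these complexes are best known for silencing developmental regulators and the Cdkn2a locus, whose repression by Bmi1 and Ezh2 lets cells go on dividing. Firre RNA lies on the same chromosome as Xist, the RNA through which Polycomb marks spread over the inactive X in female cells, and the comparison of KO with WT asks whether loss of the Firre locus goes with a change in the genes for this machinery.

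Each library held between 42986516 and 65454660 expected counts, with each of the 6 male libraries deeper than each of the 6 female ones. Firre, listed under its older name 6720401G13Rik, was at 1.99 to 2.43 CPM (counts scaled to a library total of equal size) in Female WT and at 4.48 to 4.95 CPM in Male WT. It was at 0 counts in all 6 KO libraries. Against a floor of 3 counts per library, which covers counting error only, Firre was at least 33.0-fold lower with the deletion in female cells and at least 92.5-fold in male cells. Xist was at 395 to 458 CPM in female libraries and at most 0.0677 CPM in male ones. Male replicate 3 of both genotypes stood apart: the chi-square per degree of freedom of its counts against the other replicates of its group was 35.2 to 41.9, against 7.11 to 15.5 for every other pair within a group. The comparisons that use male cells were therefore repeated without these 2 libraries, an alternative chosen after seeing the data. Fibroblast markers were high in all 12 libraries, with a summed level of 16700 to 24600 CPM over 12 genes.

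Promoter sequence is shown for the 4 genes on which the comparisons below turn, the paralogs Ezh1 and Ezh2 and the genes Suz12 and Bmi1 that were lower together with Ezh1 in female cells. RefSeq promoter windows (assembly GRCm38.p6, 250 bases before and 50 bases after the start of transcription) were held for 9 of the 10 genes, in 10 windows since Jarid2 has 2. All 10 windows occur exactly once in NCBIM37 (mm9), and the coordinates given are those of that build. Capitals mark letters of 4 motifs searched on both strands. They are the CCAAT box (CCAAT), the GC box (GGGCGG), the cyclic AMP response element (TGACGTCA) and the E2F site (TTTCCCGC, TTTCGCGC, TTTGCCGC or TTTGGCGC). Neighbouring GC boxes may overlap. E2F factors are the transcription factors that switch on genes at entry into S phase. The lines give the stretch before the start, 5′ to 3′ on the strand of the gene. They lie at chr11:101087778-101088027 (minus strand) for Ezh1, chr6:47545030-47545179 (minus strand) for Ezh2, chr11:79806358-79806607 (plus strand) for Suz12 and chr2:18598395-18598644 (plus strand) for Bmi1. For Ezh2 a stretch of 30 bases across the start, at chr6:47545015-47545044, is given as well.
Ezh1: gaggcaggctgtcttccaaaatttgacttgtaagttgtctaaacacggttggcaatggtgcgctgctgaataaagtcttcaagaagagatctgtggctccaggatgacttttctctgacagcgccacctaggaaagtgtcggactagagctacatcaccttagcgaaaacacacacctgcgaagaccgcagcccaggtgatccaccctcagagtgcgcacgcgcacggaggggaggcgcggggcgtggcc
Ezh2: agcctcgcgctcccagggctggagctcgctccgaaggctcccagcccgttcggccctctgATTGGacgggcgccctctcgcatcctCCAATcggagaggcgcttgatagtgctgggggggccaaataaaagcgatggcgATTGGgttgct
Ezh2 across the start: ggcgATTGGgttgctgcgTTTGGCGCtcgg
Suz12: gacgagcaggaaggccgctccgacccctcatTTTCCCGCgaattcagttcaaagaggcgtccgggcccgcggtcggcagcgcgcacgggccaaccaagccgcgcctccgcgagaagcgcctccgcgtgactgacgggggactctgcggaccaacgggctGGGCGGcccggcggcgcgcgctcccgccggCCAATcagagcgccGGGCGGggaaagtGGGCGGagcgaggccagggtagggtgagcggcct
Bmi1: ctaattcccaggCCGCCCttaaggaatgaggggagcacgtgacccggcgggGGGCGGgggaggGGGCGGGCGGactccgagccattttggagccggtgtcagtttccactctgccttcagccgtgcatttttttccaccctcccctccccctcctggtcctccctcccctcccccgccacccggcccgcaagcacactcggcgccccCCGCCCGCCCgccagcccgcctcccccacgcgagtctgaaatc
None of the 4 motifs was found in the Ezh1 window. The Ezh2 window held 3 CCAAT boxes and the E2F letters TTTGGCGC at bases 4 to 11 after the start. The Suz12 window held the E2F letters TTTCCCGC at bases -219 to -212, 1 CCAAT box and 3 GC boxes. The Bmi1 window held 6 GC boxes and none of the other motifs. E2F letters were in the windows of 2 of the 9 genes, against 2.28% of all 32544 promoter windows. CCAAT boxes were in 5 of 9 against 37.4% of all windows, GC boxes in 6 of 9 against 35.9%, and the response element in 1 of 9 (Cbx8) against 1.8%. These matches describe letters in the windows and are not evidence of binding.

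Across the 12 libraries the genes fell into an upper and a lower group of levels. Per kilobase of merged exon, the mean level was 27.6 CPM for Eed, 19.5 for Rnf2, 17.8 for Suz12, 12.8 for Bmi1 and 11.5 for Ezh2. It was 2.79 for Cbx2, 2.54 for Ring1, 1.7 for Ezh1, 1.41 for Jarid2 and 1.18 for Cbx8. The lowest library of Ezh2, at 9.76 CPM per kilobase, lay above the highest of Cbx2, at 3.35. Thus, among the 10, transcripts of the PRC2 genes Eed, Suz12 and Ezh2 and of the PRC1 genes Rnf2 and Bmi1 were the abundant ones. Those of Ezh1, Ring1, Jarid2 and both Cbx genes were the scarce ones. Protein was not measured. Within the order, the ranges over libraries of Rnf2 and Suz12, of Bmi1 and Ezh2, of Cbx2 and Ring1, of Ezh1 and Jarid2, and of Jarid2 and Cbx8 overlapped. Library by library, Bmi1 was above Ezh2 in 7 of 12 and Cbx2 above Ring1 in 8 of 12, so these neighbours had no fixed order. Rnf2 was above Suz12 in 11 of 12 libraries, Jarid2 above Cbx8 in 11 of 12 and Ezh1 above Jarid2 in 12 of 12. The order depends on the length used, most of all for Ezh2, whose merged exons span 6197 bases and whose longest transcript spans 2652 bases. Per kilobase of longest transcript Ezh2 stood second, at 26.9 CPM, after Eed at 29.6 CPM. Rnf2 then stood at rank 4, with Suz12 above it in 8 of 12 libraries, and Ring1 (3.23 CPM) passed Cbx2 (3.12 CPM), above it in 5 of 12. Among the 15387 genes tested, Eed was at percentile 86.9 and Cbx8 at percentile 30.8 of the level per kilobase of merged exon.

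**Figure D1:**
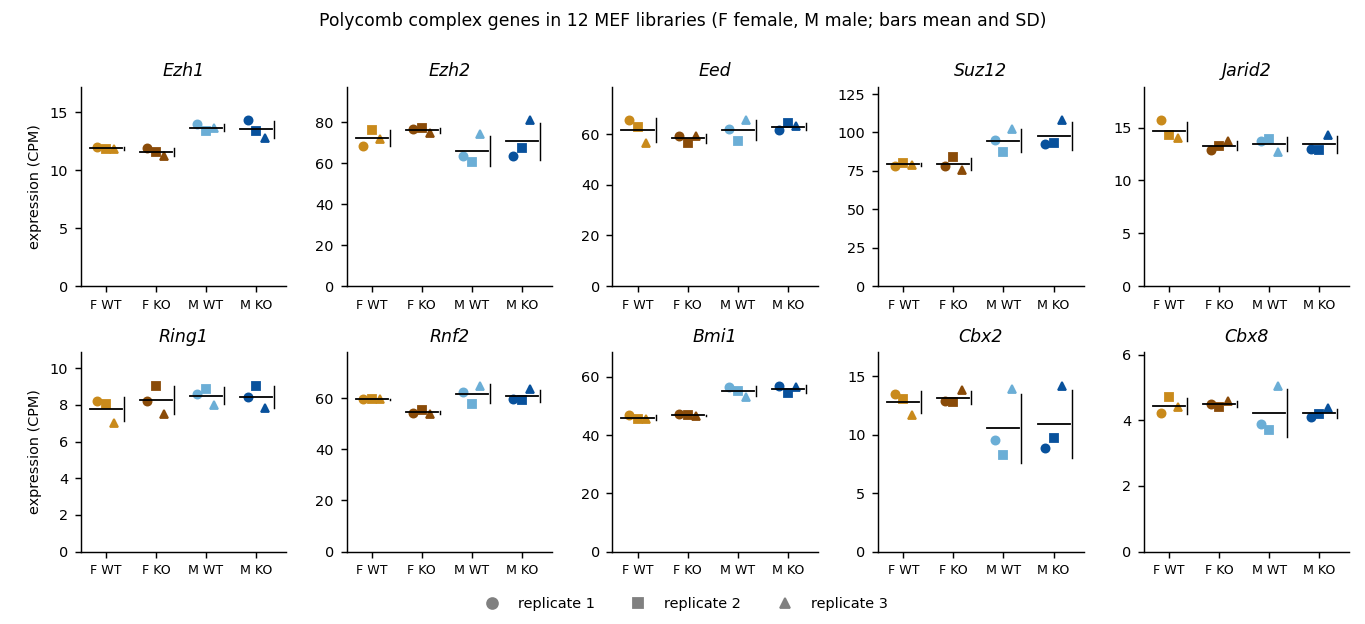
Expression of the 10 Polycomb genes in CPM (y axis, from 0) in each of the 12 libraries (x axis by group, F female and M male), with the mean (horizontal bar) and SD (vertical line) of 3 replicates. Bmi1, Ezh1 and Suz12 are lower in all female libraries than in all male ones, and male replicate 3 (triangles) holds the highest value of Ezh2, Suz12, Rnf2, Cbx2 and Cbx8 in both male groups.

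None of the 10 genes passed the test between KO and WT cells, in either sex. In Female KO against Female WT, 0 of 10 had an adjusted p under 0.05 by edgeR's quasi-likelihood test, where 0.0130% of all 15387 genes (2 genes) did. In Male KO against Male WT it was 0 of 10, where 0.00650% of all genes (1 gene) did. Averaged over the sexes it was again 0 of 10 (0.0195% of all genes). The difference between the sexes in the KO effect was called for 0 of 10 (0.00% of all genes). DESeq2 called 0 of 10 in all 4 of these comparisons as well, where it called 0.186%, 0.0207%, 0.273% and 0.0124% of the genes it tested. At an unadjusted p under 0.05, edgeR gave 1 of 10 (Rnf2) in female cells, 0 of 10 in male cells, 1 of 10 (Rnf2) on average and 0 of 10 for the difference. The shares of all genes were 7.55%, 2.06%, 6.24% and 3.19%. The log2 fold changes of the 10 genes ran from -0.14 to 0.09 in female cells and from -0.02 to 0.09 in male cells, with a median of 0.01 in each, where the median over all genes was 0.00 in each. Without male replicate 3 of both genotypes, 0 of 10 were called in male cells and the fold changes ran from -0.10 (Jarid2) to 0.12 (Cbx8).

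Ezh2, the main H3K27 methyltransferase of dividing cells (gene ENSMUSG00000029687.9, chr6:47480273-47545340), was at 68.7, 76.2 and 72.1 CPM in the Female WT replicates and at 76.6, 77.1 and 74.8 CPM in Female KO. In male cells it was at 63.7, 60.5 and 74.5 CPM in WT and at 63.5, 67.5 and 81.1 CPM in KO. The groups overlapped in both sexes, and male replicate 3 was the highest of its group in each genotype. The log2 fold change of KO over WT was 0.08 (95% interval -0.13 to 0.28) in female and 0.09 (-0.11 to 0.30) in male cells, with adjusted p = 0.893 and 1.0 by edgeR. An opposite-strand lincRNA gene, Gm17629, shares 174 exon bases with Ezh2, and the library kit does not keep strand. Gm17629 was given at most 16 counts in a library, beside 2939 to 4375 for Ezh2.

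Ezh1, the paralog that persists in non-dividing cells (ENSMUSG00000006920.8, chr11:101052429-101087777), was at 12, 11.8 and 11.8 CPM in Female WT and at 11.9, 11.6 and 11.2 CPM in Female KO. Its Male WT values were 14.0, 13.4 and 13.6 CPM, and its Male KO values 14.3, 13.4 and 12.8 CPM. KO and WT overlapped in each sex, while every male library lay above every female one. KO over WT gave a log2 fold change of -0.04 (-0.17 to 0.08) in female and -0.02 (-0.14 to 0.10) in male cells. Changes of Ezh1 beyond 0.17 in either direction lie outside both intervals.

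Among the other PRC2 subunits, Eed, which reads methylated lysine 27 and stimulates the enzyme, stood at 65.5, 63.0 and 56.3 CPM in Female WT and 59.4, 56.4 and 59.1 CPM in Female KO. In male libraries it stood at 57.4 to 65.5 CPM. Suz12, the scaffold of PRC2, stood at 78.5, 80.3 and 79.0 CPM in Female WT and 78.5, 83.8 and 75.9 CPM in Female KO. In male cells it stood at 95, 87.0 and 102 CPM in WT and 92.3, 93.0 and 108 CPM in KO. Both showed overlapping KO and WT libraries, with log2 fold changes between -0.08 and 0.05. Jarid2, an accessory subunit that helps to bring PRC2 to its sites, was at 15.7, 14.3 and 14.0 CPM in Female WT and at 12.9, 13.3 and 13.7 CPM in Female KO. All 3 Female KO values of Jarid2 lay under all 3 WT values, at a log2 fold change of -0.14 (-0.29 to 0.01) and adjusted p = 0.676 by edgeR. As complete a separation of these groups, in one direction or the other, was seen in 19.2% of all genes. In male cells Jarid2 was at 12.7 to 13.9 CPM in WT and 12.9 to 14.3 CPM in KO.

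Of the PRC1 ubiquitin ligases, Rnf2 (also known as Ring1b; ENSMUSG00000026484.7, chr1:153316536-153347953) had the smallest unadjusted p of the 10 genes for KO against WT. It was at 59.6, 59.5 and 59.5 CPM in Female WT and at 54.3, 55.2 and 53.9 CPM in Female KO, a log2 fold change of -0.13 (-0.23 to -0.02), or -8.44%. The groups did not overlap, but the unadjusted p of 0.0203 came to an adjusted p = 0.581 by edgeR over all genes. In male cells Rnf2 was at 62.5, 57.7 and 64.9 CPM in WT and 59.6, 59.3 and 63.7 CPM in KO, with overlapping groups and a log2 fold change of -0.02 (-0.12 to 0.08). The difference of the KO effect between the sexes was -0.11 (-0.25 to 0.04), with adjusted p = 1.0. Ring1, the ligase gene with the less abundant transcript, was at 8.23, 8.07 and 7.04 CPM in Female WT and 8.22, 9.05 and 7.52 CPM in Female KO. In male libraries it was at 7.83 to 9.01 CPM, with no separation of KO from WT in either sex. Jarid2 and Rnf2 were the only ones of the 10 genes whose Female KO and WT libraries did not overlap, about the share of all genes (19.2%). None of the 10 was separated in male cells, where 5.30% of all genes were.

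The remaining PRC1 genes showed values within the spread. Bmi1, the Pcgf partner that stimulates the ligase, was at 45.4 to 47.0 CPM in Female WT and 46.7 to 47.1 CPM in Female KO, and at 53.2 to 56.7 and 54.4 to 57.0 CPM in Male WT and KO. Its interval was among the narrowest, with log2 fold changes of 0.03 (-0.06 to 0.11) in female and 0.02 (-0.06 to 0.10) in male cells. Cbx2 and Cbx8, chromodomain proteins encoded 5.03 kb apart on chromosome 11 (chr11:118884276-118892584 and chr11:118897619-118902283), differed in how closely replicates agreed. Cbx2 was at 13.5, 13.1 and 11.7 CPM in Female WT and 12.9, 12.8 and 13.8 CPM in Female KO. In male cells it was at 9.53, 8.25 and 13.9 CPM in WT and 8.84, 9.72 and 14.2 CPM in KO, so that both male groups held a high replicate 3. Its KO effect in male cells, 0.05, had an interval from -0.39 to 0.48. The value was -0.19 without Male KO replicate 3 alone, which leaves the high Male WT replicate 3 in place. It was 0.06 without replicate 3 of both male groups. Cbx8, at 3.71 to 5.06 CPM over all libraries and 181 to 272 counts, showed log2 fold changes of 0.01 (-0.24 to 0.27) in female and 0.00 (-0.26 to 0.26) in male cells.

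**Figure D2:**
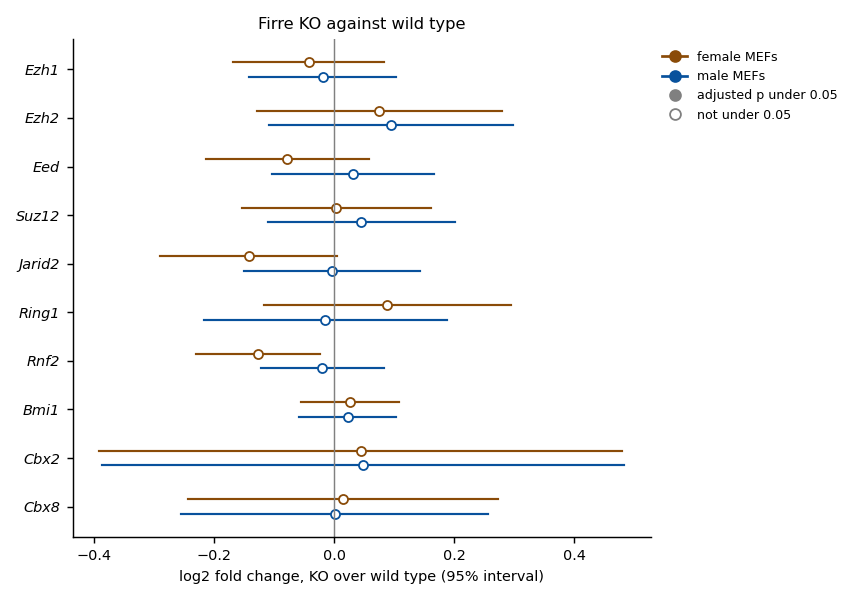
Log2 fold change of Firre KO over wild type (x axis) for each of the 10 genes (y axis) in female and male MEFs, with 95% intervals from the edgeR fit; filled points would mark an adjusted p under 0.05. All 20 points are open, between -0.14 and 0.09, and the widest intervals are those of Cbx2.

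The proportion of paralogs was then taken within each library, where it does not depend on the scaling between libraries. Ezh1 stood to Ezh2, per kilobase of merged exon, at 0.146, 0.13 and 0.137 in Female WT and at 0.13, 0.125 and 0.124 in Female KO. In male cells it stood at 0.183, 0.185 and 0.152 in WT and at 0.187, 0.166 and 0.131 in KO. Ezh1 was therefore the minor transcript of the pair in every library, at 11.1% to 15.8% of the sum, and the ratio of male replicate 3 lay toward the female values in both genotypes. The means were 0.138 ± 0.00802 (SD, n = 3) in Female WT, 0.126 ± 0.00321 in Female KO, 0.173 ± 0.0185 in Male WT and 0.161 ± 0.0283 in Male KO. By two-sided exact permutation tests, KO differed from WT by -0.12 on the log2 scale in female (p = 0.2) and -0.113 in male cells (p = 0.7), where 3 against 3 libraries cannot go below p = 0.1. With single libraries left out, the female difference ran from -0.162 to -0.075. The male one ran from -0.228 to 0.028, turning sign without Male KO replicate 3, and was -0.064 without male replicate 3 of both genotypes. Female libraries lay below male libraries by -0.334 on the log2 scale (0.793-fold; exact permutation p = 0.00866 over 6 and 6 libraries, 0.052 after Benjamini-Hochberg adjustment over the 6 ratio tests). A single male library, KO replicate 3, lay within the female range. The differences within WT and within KO cells were -0.331 and -0.338. Without male replicate 3 of both genotypes the difference was -0.451 (exact permutation p = 0.00952), and all 4 remaining male ratios lay above all 6 female ones.

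Ring1 stood to Rnf2 at 0.129, 0.127 and 0.111 in Female WT and at 0.141, 0.153 and 0.13 in Female KO. In male cells it stood at 0.129, 0.144 and 0.115 in WT and at 0.132, 0.142 and 0.115 in KO, so Rnf2 was the major ligase transcript in every library. In female cells the 3 KO ratios lay above the 3 WT ratios, at a mean of 0.141 ± 0.0115 against 0.122 ± 0.00987 (SD, n = 3 each), a log2 difference of 0.214. The exact permutation p of 0.1 is the smallest this design allows, and it was 0.3 after adjustment over the 6 tests. The male difference was 0.003 (exact permutation p = 1.0), and female and male libraries differed by 0.024 (exact permutation p = 0.786), which became -0.058 without male replicate 3 of both genotypes.

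**Figure D3:**
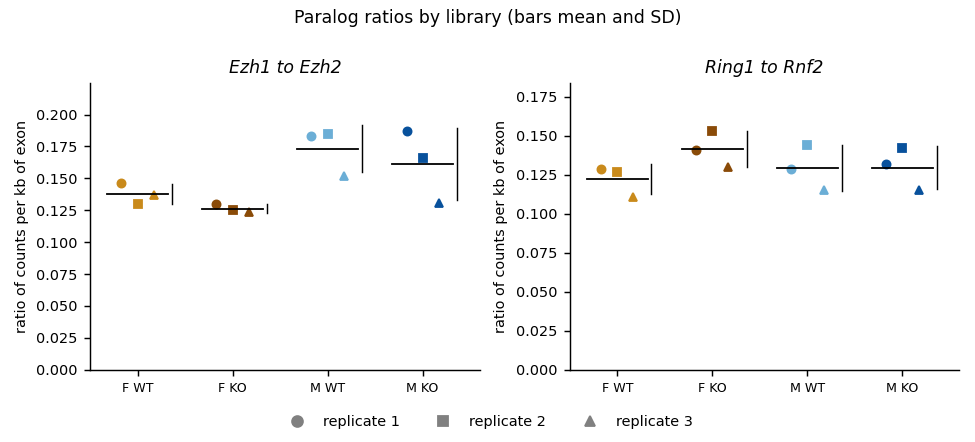
Ratio of Ezh1 to Ezh2 and of Ring1 to Rnf2 (y axes, counts per kilobase of merged exon, from 0) in each of the 12 libraries by group, with mean and SD of 3 replicates. The Ezh1 to Ezh2 ratio is 0.124 to 0.146 in female and 0.131 to 0.187 in male libraries, and the Ring1 to Rnf2 ratio is higher in the Female KO than in the Female WT libraries.

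Between the sexes, Bmi1, Ezh1 and Suz12 were lower in female cells in both genotypes, and 0 of the 10 were called higher in either genotype (18.9% of all genes in each). In WT cells 3 of 10 genes were called, all lower, where 38.7% of all genes were called and 19.8% were lower. In KO cells 4 of 10 were, all lower, where 38.7% were called and 19.7% were lower. Called in both comparisons were 3 of the 10 genes and 30.2% of all genes, so the members were called about as often as any gene. The median log2 fold change of the 10 genes was -0.03 in WT and -0.07 in KO cells, beside -0.01 and 0.00 over all genes. Sex, embryo line, culture and sequencing depth cannot be told apart in this design. Macrophage markers were called higher in female cells for 10 of 10 genes in both genotypes, at a summed 40.6 to 126 CPM against 7.48 to 16.0 CPM in male libraries. Epithelial markers, at 77.1 to 136 against 41.7 to 54.4 CPM, were called higher for 8 of 8 genes in WT and 3 of 8 in KO cells. Skeletal muscle markers were called higher for 5 of 8 and 6 of 8 genes tested, at overlapping sums of 88.0 to 158 and 79.3 to 146 CPM. Of the 10 listed muscle genes, up to 4 were at 0 counts in a male library. Acta1 (log2 fold change -0.52 in WT cells) and Des were not called in either genotype. Neural markers were called higher for 4 of 8 and 5 of 8 genes, at 636 to 856 against 485 to 653 CPM, and endothelial markers for 3 of 6 and 1 of 6, at 25.8 to 36.4 against 17.9 to 24.4 CPM. Of the 12 fibroblast markers, 4 were called lower and 0 higher in WT cells, and 4 lower and 1 higher in KO cells. The part of these cells in the differences was not tested.

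Bmi1 (ENSMUSG00000026739.7, chr2:18598645-18608256) showed the most regular difference, at 45.4 to 47.1 CPM in the 6 female and 53.2 to 57.0 CPM in the 6 male libraries. The log2 fold change of female over male was -0.26 ± 0.0372 (SE) in both WT (adjusted p = 0.000415, edgeR) and KO cells (adjusted p = 0.000451), or -16.5% and -16.3%, and no female library reached a male one. Without male replicate 3 of both genotypes it was -0.29 (adjusted p = 0.000197) and -0.25 (adjusted p = 0.000426). Suz12 (ENSMUSG00000017548.9, chr11:79806608-79847625) was at 75.9 to 83.8 CPM in female and 87.0 to 108 CPM in male libraries, with log2 fold changes of -0.26 ± 0.0715 in WT (adjusted p = 0.0151) and -0.30 ± 0.0715 in KO cells (adjusted p = 0.00716). Its groups were separate too. The call in WT cells was lost without Male WT replicate 3 (-0.20, adjusted p = 0.0501), whereas with both male replicate 3 libraries left out it held at -0.20 (adjusted p = 0.00912), and the KO call at -0.22 (adjusted p = 0.00554). Gm16706, a lincRNA gene on the opposite strand that shares 178 exon bases with Suz12, was given at most 22.11 counts in a library, beside at least 3357 for Suz12. Ezh1 was lower in female cells by -0.20 ± 0.0564 in WT (adjusted p = 0.0166) and -0.22 ± 0.0565 in KO cells (adjusted p = 0.00977). Leaving out Male WT replicate 1 or Female WT replicate 3 took the WT call of Ezh1 to an adjusted p = 0.0579 and 0.0517. Without male replicate 3 of both genotypes Ezh1 was called at -0.21 (adjusted p = 0.0131) and -0.26 (adjusted p = 0.00417). Rnf2 was called in KO cells only, at -0.16 ± 0.0469 (adjusted p = 0.0203), against -0.05 (adjusted p = 0.41) in WT cells. The difference of those values is the difference of the KO effects given above, which was not called. That KO call was lost without Male KO replicate 3 (-0.13, adjusted p = 0.0568), Female KO replicate 1 (-0.16, adjusted p = 0.0556) or Female KO replicate 3 (-0.15, adjusted p = 0.0609). With male replicate 3 of both genotypes left out it held, at -0.13 (adjusted p = 0.0243).

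Ezh2 and Cbx2 depended on male replicate 3. With all libraries, female over male gave 0.13 (adjusted p = 0.304) in WT and 0.11 (adjusted p = 0.384) in KO cells for Ezh2, and 0.28 (adjusted p = 0.299) and 0.27 (adjusted p = 0.303) for Cbx2. Without male replicate 3 of both genotypes, Ezh2 was higher in female cells by 0.22 in both WT (adjusted p = 0.00621) and KO cells (adjusted p = 0.00659), and Cbx2 by 0.52 (adjusted p = 0.00136) and 0.50 (adjusted p = 0.00168). The 10 genes then gave 5 calls in WT and 6 in KO cells, where 45.1% and 44.6% of all genes were called. In male replicate 3, Ezh2 was 1.2 and 1.24 times the mean of replicates 1 and 2 in WT and KO, and Cbx2 was 1.57 and 1.54 times. The same libraries held more RNA of dividing cells: the summed level of 12 proliferation genes was 1730 CPM in Male WT replicate 3 against 1510 and 1520 CPM, and 2130 CPM in Male KO replicate 3 against 1550 and 1650 CPM. The female libraries ranged from 1590 to 1690 CPM in WT and from 1690 to 1950 CPM in KO. Summed fibroblast markers were lower in the same 2 libraries, at 19900 CPM in Male WT replicate 3 against 24200 and 24600 CPM, and at 19600 CPM in Male KO replicate 3 against 23200 and 24200 CPM. In KO against WT, the 12 proliferation genes had median log2 fold changes of 0.14 in female and 0.15 in male cells. All 12 lay above 0 in each sex. By edgeR, 0 of 12 were called or reached an unadjusted p under 0.05 in either sex. Of all genes, 7.55% in female and 2.06% in male cells reached that unadjusted p. The part of proliferation or of fibroblast content in the levels of Ezh2 and Cbx2 was not tested.

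**Figure D4:**
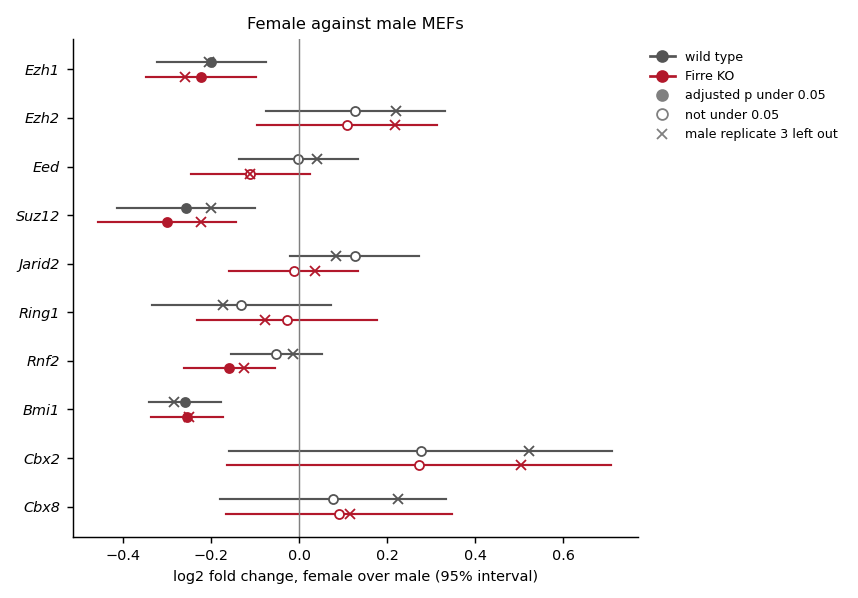
Log2 fold change of female over male MEFs (x axis) for each of the 10 genes (y axis) in wild-type and Firre KO cells, with 95% intervals from the edgeR fit and filled points for an adjusted p under 0.05; crosses give the value without male replicate 3 of both genotypes. Bmi1, Ezh1 and Suz12 are filled in both genotypes and Rnf2 in KO cells, and the crosses of Ezh2 and Cbx2 lie further to the right than their points.

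The remaining members showed no call between the sexes. Eed differed by 0.00 (-0.14 to 0.13) in WT and -0.11 (-0.25 to 0.02) in KO cells, Jarid2 by 0.13 (-0.02 to 0.27) and -0.01 (-0.16 to 0.13), Ring1 by -0.13 (-0.34 to 0.07) and -0.03 (-0.23 to 0.18), and Cbx8 by 0.08 (-0.18 to 0.33) and 0.09 (-0.17 to 0.35). Groups without overlap were seen for Bmi1, Ezh1, Suz12 and Jarid2 in WT cells, where 51.9% of all genes had none, and for Bmi1, Ezh1, Suz12, Rnf2, Eed and Cbx8 in KO cells, where 50.2% had none.

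**Figure D5:**
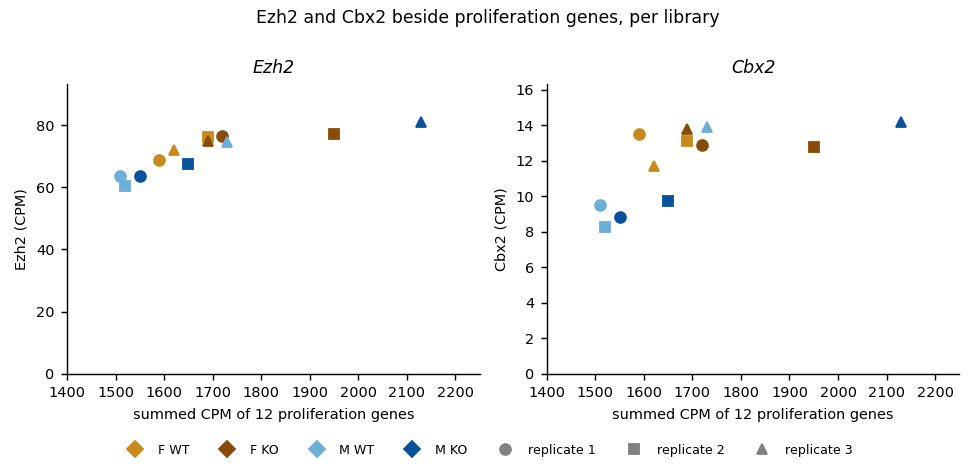
Level of Ezh2 and of Cbx2 (y axes, CPM from 0) against the summed CPM of 12 proliferation genes (x axis, not from 0) in each of the 12 libraries, with colour for the group and shape for the replicate. Male replicate 3 (blue triangles) lies at 1730 and 2130 CPM on the x axis and at 74.5 and 81.1 CPM of Ezh2, apart from the other 4 male libraries at 60.5 to 67.5 CPM.

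The likeness of the members over the 12 libraries is given as Pearson's r of log2 CPM, a description in which the libraries share sex, depth and the departure of male replicate 3. Ezh2 went with Cbx2 (r = 0.9) and Cbx8 (r = 0.788), and Cbx2 with Cbx8 (r = 0.815). Bmi1 went with Ezh1 (r = 0.912) and Suz12 (r = 0.838), and Suz12 with Rnf2 (r = 0.784). With Ezh2, Cbx2 and Cbx8, r was -0.647, -0.677 and -0.44 for Ezh1 and -0.506, -0.585 and -0.491 for Bmi1. For Suz12 and Rnf2 it lay near 0 with those same genes, between -0.146 and 0.07. The tested genes whose pattern was most like that of Ezh2 were Orc1 and Ankrd32 (r = 0.969 each), 5730590G19Rik and Cpsf2 (0.965 each) and Dck (0.961). For Ezh1 they were Alpk1 and Atl1 (0.977 each) with Atat1, Rgl3 and Rhot1 (0.974 each). For Rnf2 they were Zfp677 (0.948), Lims1 (0.936), Prpf39 (0.931), Cdc73 (0.926) and Ms4a2 (0.925), and for Ring1 they were Akt2 and 1810006K21Rik (0.908 each), Tdrkh (0.867), Myl6 (0.865) and Aldh3b1 (0.847).

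The other genes of the Polycomb system, 47 genes in 5 lists, were likewise not called for the loss of Firre. In KO against WT, edgeR and DESeq2 called 0 of 47 in female and 0 of 47 in male cells, with median log2 fold changes of 0.02 and -0.01. At an unadjusted p under 0.05 edgeR gave 4 (8.51%) and 0 of 47, beside 7.55% and 2.06% of all genes. Rbbp4 and Rbbp7, the histone-binding subunits of PRC2, were at 234 ± 2.73 and 341 ± 14.1 CPM (SD, n = 3) in Female WT and at 240 ± 4.07 and 345 ± 11.2 CPM in Female KO. Epop, which links PRC2 to elongation factors, had a log2 fold change of 0.42 ± 0.118 (SE) in female cells, at 7.83 ± 0.758 CPM in WT and 10.4 ± 0.55 CPM in KO, and an adjusted p = 0.513. Between female and male WT cells 7 of the 47 were called higher and 12 lower, where 18.9% of all genes were higher and 19.8% lower. Between KO cells 10 were higher and 10 lower, where 18.9% and 19.7% of all genes were. Of these genes 31.9% were called in the same direction in both, beside 30.2% of all genes.

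Among PRC2 accessory genes, Phf1, a Polycomb-like protein that binds H3K36 methylation, was lower in female cells, at 7.64 ± 0.106 against 12.3 ± 0.944 CPM in WT (log2 fold change -0.68, adjusted p = 0.000833), and Epop was higher (0.54, adjusted p = 0.00498). Lcor was called higher as well, at 0.42 (adjusted p = 0.0227), but this call was lost without any one of 4 of the 6 libraries, with adjusted p up to 0.0783. In PRC1, the variant subunits Pcgf5 (0.46, adjusted p = 0.00221) and L3mbtl2 (0.39, adjusted p = 0.000415) were higher in female WT cells, and Scml2, an X-linked gene, was lower in female KO cells (-0.95, adjusted p = 0.000985) and not called in WT cells (-0.38, adjusted p = 0.0746). Ogt, the X-linked enzyme that attaches N-acetylglucosamine to proteins and binds the PR-DUB deubiquitinase, was at 91.6 ± 4.9 CPM in Female WT and 183 ± 14.0 CPM in Male WT, a log2 fold change of -1.0 (adjusted p = 1.04e-05), and at -1.02 in KO cells. Mbd5, of the PR-DUB list, was lower in female WT cells (-0.31, adjusted p = 0.00117), and the H2A deubiquitinase Mysm1 was lower in WT (-0.34) and KO cells (-0.40). Each of these calls held without male replicate 3 of both genotypes, where Ogt was at -0.95 in both comparisons, Phf1 at -0.74 in WT cells and Lcor at 0.57 (adjusted p = 0.000941).

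Kdm6a, the X-linked demethylase that removes the mark PRC2 sets, and its Y-linked paralog Uty differed in opposite directions between the sexes. Kdm6a was at 42.8 ± 0.782 CPM in Female WT and 44.9 ± 1.82 CPM in Female KO, against 28.8 ± 1.2 and 29.4 ± 0.0958 CPM in male cells. The log2 fold change was 0.57 (adjusted p = 1.36e-05) in WT and 0.61 (adjusted p = 9.15e-06) in KO cells, and 0.54 and 0.60 without male replicate 3 of both genotypes. Uty was at 21.1 to 29.6 CPM in male libraries and at no more than 1 count in any female one, at least 388-fold lower in Female WT and at least 362-fold lower in Female KO. Neither differed between KO and WT by the test, with a log2 fold change of Kdm6a of 0.07 ± 0.0437 in female (adjusted p = 0.744) and 0.03 ± 0.044 in male cells (adjusted p = 1.0).

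Of 14 genes known as Polycomb targets, 6 passed the low-count filter and 8 (Pax7, Olig2, Foxa2, Nkx2-2, T, Sox17, Neurog2 and Lhx2) did not. None of the 6 was called between KO and WT in either sex. Their median log2 fold change was -0.31 in female cells (5 of 6 below 0, smallest adjusted p = 0.719 by edgeR) and -0.40 in male cells (6 of 6 below 0, each adjusted p = 1.0), beside 0.00 over all genes. In male cells it was -0.14 (5 of 6 below 0) without male replicate 3 of both genotypes. With all libraries, male Gata4 was at -1.59 (-3.69 to 0.51), Pax6 at -0.67 (-1.85 to 0.51) and Wt1 at -0.44 (-1.71 to 0.825). Male Cdkn2a was at -0.35, Gata6 at -0.11 and Cdkn2b at -0.03. The intervals of all 6 included 0 in each sex. All skeletal muscle and neural markers tested were also below 0 in male cells, and all epithelial ones but Krt19 in female cells. Macrophage markers, and these lists in the other sex, lay on both sides of 0. The part of other cells was not tested. Cdkn2a, the locus through which Bmi1 and Ezh2 act on cell division, was at 22.1 ± 4.46 CPM in Female WT, 20.4 ± 3.29 in Female KO, 13.7 ± 1.45 in Male WT and 10.7 ± 2.22 CPM in Male KO. It was higher in female cells by 0.69 (adjusted p = 0.0116) in WT, a call lost without Female WT replicate 3 (0.57, adjusted p = 0.0513), and by 0.92 (adjusted p = 0.00271) in KO cells. Gata4 was higher in female cells too, by 2.7 (adjusted p = 0.0196) and 3.74 (adjusted p = 0.00746), at 2.78 ± 1.41 against 0.43 ± 0.25 CPM in WT. The WT call was lost without Male WT replicate 1, Male WT replicate 2 or Female WT replicate 3 (adjusted p = 0.0549, 0.0656 and 0.0724). Pax6, at 0.548 ± 0.149 against 0.185 ± 0.117 CPM in WT, was called at 1.56 (adjusted p = 0.0217) and 1.45 (adjusted p = 0.0451), calls that were lost without Female WT replicate 3 (adjusted p = 0.0864) and without any one of the 6 libraries in KO cells. The low-count filter asks for enough counts in only as many libraries as a group holds. Genes low in male cells, such as Gata4 and Pax6, could therefore pass it through their female libraries. Without male replicate 3 of both genotypes, Cdkn2a was called at 0.61 and 0.76 and Gata4 at 3.13 and 3.34, and the call of Pax6 held in WT (1.65, adjusted p = 0.0417) but not in KO cells (1.46, adjusted p = 0.0894).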

How the data were processed

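Only the RNA-seq libraries of the MEFs entered the analysis. The authors mapped filtered reads from Illumina TruSeq (version 2) libraries with Bowtie 2, estimated gene abundance with RSEM 1.2.29 (mm9) and deposited unscaled expected counts per gene, which are estimated counts and need not be whole. Reads shared between genes are split by RSEM, so genes with near copies or overlaps are less certain. Counts were rounded, filtered with filterByExpr, scaled by TMM and tested with edgeR 4.0.16 (R 4.3.3) in 1 quasi-likelihood fit over 4 group means, 12 libraries and 8 residual degrees of freedom, with Benjamini-Hochberg adjustment over 15387 genes and calls at an adjusted p under 0.05 without a fold limit. CPM use TMM-scaled library totals. Paralog ratios used unrounded counts per kilobase of merged GENCODE M1 exons and two-sided exact permutation tests (SciPy 1.17.1). All 37310 identifiers were found in that annotation on NCBIM37. Scripts were tested on simulated data. Alternatives were DESeq2 1.42.0 with mean dispersion, other scalings and filters, the study's thresholds (adjusted p under 0.01, log2 fold change over 1), single libraries left out and the replicate number as a block. Named were the 10 members, Firre, Kdm6a, Uty, Rbbp4, Rbbp7 and Cdkn2a, of the other lists up to 5 genes called higher and 5 called lower, by size of the change, per comparison, and the 5 genes most correlated with each of 4 paralogs; Epop in female KO cells and Xist were named after their values were seen. Members and lists were chosen with earlier results of these data known. Hi-C and ChIP-seq were not used here. Total expected counts per library, 42986516 to 65454660, set the counting precision of each value.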

Additional observations from a re-analysis of the deposited data

How the results depend on the processing

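The counts of 0 among the 10 members and the other Polycomb genes in KO against WT were 0 under every alternative run. Between the sexes, the study's thresholds left 0 members in WT and 0 in KO cells, and 1 and 2 of the 47 other Polycomb genes, where 4.54% and 3.89% of all genes passed. Over all genes, DESeq2 called 21 higher and 10 lower in Female KO against WT, where edgeR called 1 and 1, 2 and 3 in Male KO against WT (edgeR 0 and 1), 20 and 5 on average (edgeR 2 and 1), and 2 and 1 for the difference between the sexes (edgeR 0 and 0). Leaving out male replicate 3 of both genotypes, chosen after seeing the data, gave 5 members in WT cells against 3, and 6 in KO cells against 4. The shares of all genes were 45.1% and 44.6%, against 38.7% in each. The Ring1 to Rnf2 difference between the sexes was then -0.058 against 0.024, with -0.021 to 0.073 when single libraries were left out. With single libraries left out, 2 to 3 members were called in WT and 3 to 4 in KO cells, beside 29.2% to 36.8% and 29.9% to 38.1% of all genes. Lengths of the longest transcript in place of merged exons moved the Ezh1 to Ezh2 ratio to 0.104 in Female WT, 0.0957 in Female KO, 0.131 in Male WT and 0.122 in Male KO, and the Ring1 to Rnf2 ratio to 0.155, 0.18, 0.164 and 0.165, without bearing on differences between groups. By the correlation of their deviations, KO with WT, replicate numbers did not pair the samples in female cells (-0.164 to -0.118). In male cells the correlations were above 0 for each replicate number (0.0966 to 0.333, highest for replicate 3). The main tests took the libraries as unpaired in both sexes. With the replicate number as a block, 0 members were called in KO against WT. Between the sexes 3 were called in WT and 4 in KO cells (38.4% and 38.5% of all genes). The block ended 1 call among the named genes, Pax6 between the sexes in KO cells (adjusted p = 0.0668, edgeR). The call of Pax6 in KO cells was also lost without a low-count filter (1.44, adjusted p = 0.0603), and its call in WT cells with only the 6 libraries compared (1.57, adjusted p = 0.0517).

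Log2 fold changes that were not called and lie near 0 changed sign under some settings; the cause was not tested. In Female KO against WT, Suz12 was -0.01 with scaling by library size only and 0.00 (below 0) with at least 10 counts in every library or only the 6 libraries compared, and Cbx8 was 0.00 (below 0) by library size. In Male KO against WT, Jarid2 and Rbbp7 were 0.01 by library size, Cbx8 was 0.00 (below 0) with DESeq2 size factors, and without male replicate 3 Ezh1 was 0.01, Bmi1 -0.01 and Kdm6a 0.00 (below 0). Between the sexes in WT, Eed was 0.00 with DESeq2, DESeq2 size factors and only the 6 libraries, 0.01 with at least 10 counts, 0.02 by library size and 0.04 without male replicate 3, and Rbbp4 was 0.01 by library size; in KO cells Jarid2 was 0.04 without male replicate 3. Single libraries left out also turned signs. The ranges in Female KO against WT were Suz12 -0.04 to 0.04, Cbx2 -0.02 to 0.09, Cbx8 -0.02 to 0.06, Rbbp7 -0.02 to 0.04, Cdkn2a -0.27 to 0.01. The ranges in Male KO against WT were Ezh1 -0.06 to 0.02, Ezh2 -0.02 to 0.19, Eed -0.02 to 0.08, Suz12 -0.03 to 0.10, Jarid2 -0.05 to 0.02, Ring1 -0.07 to 0.03, Rnf2 -0.07 to 0.02, Bmi1 -0.00 to 0.04, Cbx2 -0.19 to 0.30, Cbx8 -0.08 to 0.15, Kdm6a -0.00 to 0.06, Rbbp7 -0.04 to 0.01. The ranges in female against male WT were Eed -0.05 to 0.06, Cbx8 -0.01 to 0.22, Rbbp4 -0.04 to 0.01. The ranges in female against male KO were Jarid2 -0.04 to 0.03, Ring1 -0.10 to 0.03.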
